A study of Mus musculus with 12 samples.

Results

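H9c2 is an embryonic heart-derived myoblast line, given as mouse in the sample labels and treated as a rat line in the paper. Its cells were compared after 6 h with doxorubicin and dexrazoxane together (D_DXZ, 3 libraries) and without treatment (Unt, 3 libraries). These 6 of the 12 poly(A) RNA-seq libraries of the series carry the comparison described here, and the 3 libraries with doxorubicin alone (DOX) serve as a reference for what dexrazoxane was added to. This is a single established line, and no group carries an engineered allele. None of the 12 libraries had dexrazoxane alone, so an effect of dexrazoxane by itself cannot be told apart from that of the combination. The doses are not given in the sources used here, and the labels do not say whether the replicates were separate cultures, so p-values measure only the spread between these libraries, which may be technical. Genes entered with at least 1 FPKM, a read count divided by gene length and by a size factor of the library, in at least 3 of the 6 libraries, which 11439 of the 54345 listed genes reached, 9956 of them protein-coding. The genes listed are mouse genes, and how a rat origin of the cells would affect their levels was not tested.

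Doxorubicin is an anthracycline that poisons DNA topoisomerase II, so that broken DNA stays bound to the enzyme, and that intercalates into DNA and hinders transcription. It also forms complexes with iron that generate reactive oxygen species. Dexrazoxane, given to patients to protect the heart from anthracyclines, is hydrolysed to an iron chelator and inhibits topoisomerase II without leaving the DNA cleaved. Messenger RNAs differ widely in how fast they decay, and those of immediate early genes and of many signalling regulators are among the shortest-lived.

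The reads recovered on genes ranged from 17724150 to 18509705 in Unt and from 17300819 to 18107499 in D_DXZ, so depth was similar. Pearson correlations of log2(FPKM + 1) were 0.988 to 0.992 between Unt libraries, 0.986 to 0.992 between D_DXZ libraries and 0.858 to 0.909 between the groups. Of the 17 muscle markers examined, Gata4 and Des had a mean of at least 1 FPKM, whereas Myf5, Myf6 and Ryr2 had no reads in any of the 6 libraries, so most markers that define heart or skeletal muscle were absent or near 0. Of the markers of other cell types, the collagens Col1a1, Col1a2 and Col3a1 and the lysosomal Cd68 reached this level, while Thy1 and Adgre1 were at 0 in every library. Summed FPKM over each list ranged from 12.4 to 13.6 in Unt and from 5.62 to 6.79 in D_DXZ for muscle, from 60.9 to 66.6 and from 108 to 152 for fibroblasts (3 of 6 markers reached 1 FPKM) and from 0.888 to 1.12 and from 3.82 to 4.37 for macrophages (1 of 4). Within the muscle list Gata4 and Des were lower in D_DXZ, while Acta1, a skeletal actin, ranged between 0.0776 and 0.136 FPKM in Unt and between 1.17 and 1.89 FPKM in D_DXZ. Tnnt2, cardiac troponin T, ranged between 0.0969 and 0.190 FPKM in Unt and between 0.433 and 0.580 FPKM in D_DXZ. None of the 4 endothelial and 4 epithelial markers reached 1 FPKM. Their part in the results was not tested. In bulk RNA, fewer cells and less RNA per cell cannot be told apart.

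With dexrazoxane present, most genes still differed from untreated cells. In limma on log2(FPKM + 1), 4455 genes were higher in D_DXZ (38.9% of those tested) and 4840 were lower (42.3%) at a Benjamini-Hochberg adjusted p under 0.05, and 2144 did not pass. At least 2-fold differences were found for 2081 higher genes (18.2%) and 1706 lower genes (14.9%). The libraries of the groups did not overlap for 84.2% of all genes tested, so separation alone marks no gene out.

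The deposited FPKM are scaled so that the typical gene is equal between libraries, and the direction of many calls depends on this. The median log2 fold change of all genes was -0.07 as deposited. It was -1.01 with TPM scaling, in which the FPKM of each library are brought to the same total, a shift of -0.94, and -0.84 with limma's voom on the recovered reads, a shift of -0.77. TPM scaling called 1215 genes higher (10.6%) and 8551 lower (74.8%), and voom called 2279 higher (19.9%) and 7242 lower (63.3%). The 500 genes with the largest mean share of reads took 30.7% to 31.9% of the reads in Unt and 47.9% to 51.1% in D_DXZ. Differences of gene lists are therefore given below as the median of the list minus the median of all genes in the same fit, called the relative median, and a direction that turns with the scaling is named with it.

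**Figure D1:**
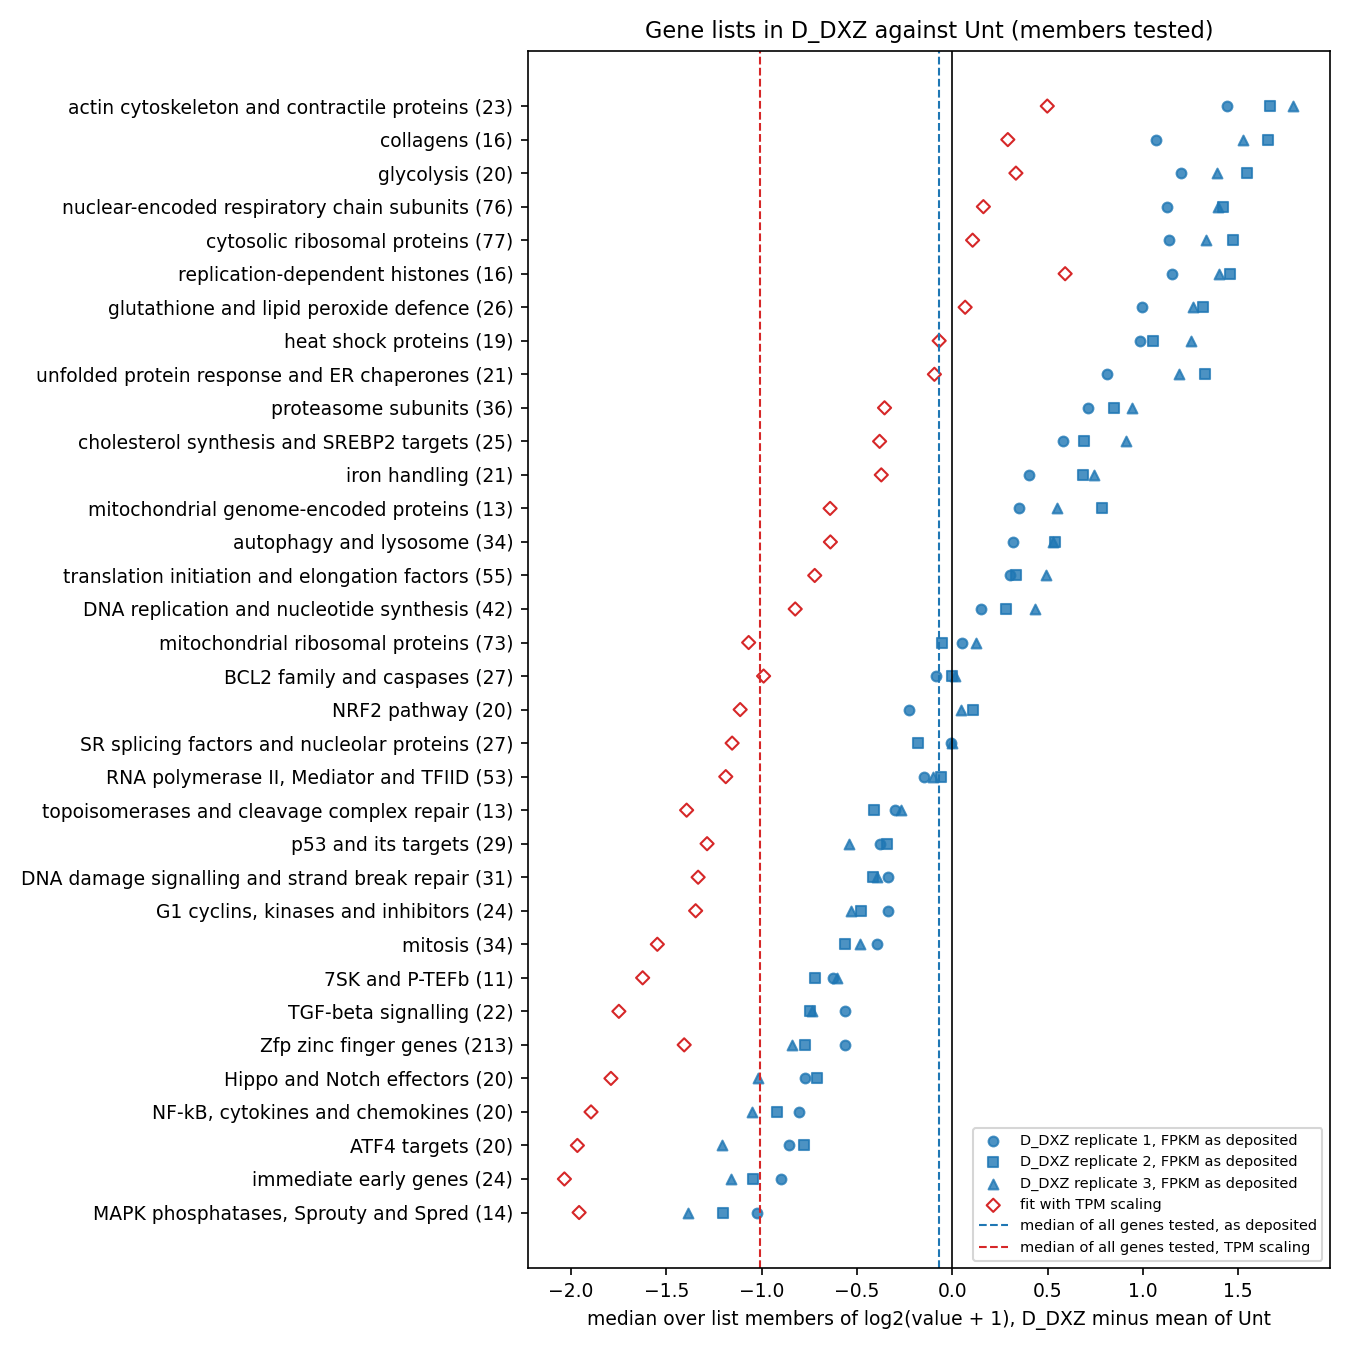
Median log2 difference of each gene list in the 3 D_DXZ libraries against the mean of Unt (filled markers, log2(FPKM + 1) as deposited) and in the fit with TPM scaling (open diamonds), with the median of all genes tested under each scaling as dashed lines. Actin genes stood highest as deposited (1.62) and histones with TPM scaling (0.59), and MAPK phosphatases, immediate early genes and ATF4 targets stood lowest on both scales. Many histones passed the filter through the D_DXZ libraries, which favours a high median.

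Among the 10 largest rises of well-expressed protein-coding genes were S100a4, Tfrc, Lars2, Idi1, Cirbp, Sh3bgrl, S100a6, Anxa1 and S100a11, and each of these was also higher with TPM scaling. S100a4, a calcium-binding protein linked to cell motility, stood at 3.88, 6.15 and 5.61 FPKM in the Unt libraries and at 45.9, 75.4 and 57.8 FPKM in the D_DXZ libraries. Its lowest D_DXZ library was far above its highest Unt library, and the difference was 3.28 ± 0.19 (SE, log2 scale, adjusted p = 5.07e-06). S100a6 and S100a11, of the same calcium-binding family, and Anxa1, a phospholipid-binding annexin that pairs with S100 proteins, rose by 2.69, 2.61 and 2.69 on the log2 scale. S100a11 has 2 near-identical copies in the genome, which could share its reads.

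Cirbp, a cold-inducible RNA-binding protein, rose from 3.98 ± 0.13 to 37.3 ± 10.3 FPKM (SD, n = 3 in each group). Lars2, the mitochondrial leucyl-tRNA synthetase, rose by 3.08 ± 0.12. Idi1, an isomerase of the isoprenoid pathway, rose by 2.92 and has 2 near-identical copies and an overlapping antisense gene, which these non-directional libraries cannot tell apart from it.

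The 10 largest falls were Trib3, Chac1, Ddit4, Cyr61, Fam58b, Nxt1, Rhob, Gadd45a, Cdt1 and H1f0. Trib3, a pseudokinase induced by amino acid and endoplasmic reticulum stress, stood at 143, 149 and 168 FPKM in Unt and at 35.8, 17.2 and 6.62 FPKM in D_DXZ. All D_DXZ libraries were well below Unt, but they also differed from each other, replicate 1 being least reduced and replicate 3 most. The difference was -3.16 ± 0.44 (SE, adjusted p = 0.000121). In each of the other 9 genes, too, replicate 1 was least and replicate 3 most reduced. Cdt1, the replication licensing factor, stood at 13.2, 8.29 and 4.65 FPKM against a mean of 50.6 FPKM in Unt, and Rhob, a small GTPase, at a mean of 14.1 FPKM against 78.5 FPKM.

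This order extended beyond the named genes. D_DXZ replicate 1 was the library nearest to Unt for 85.1% of the higher and 73.1% of the lower genes. The median difference from Unt over the called genes was 0.78, 1.03 and 1.05 in D_DXZ replicates 1, 2 and 3 for the higher genes and -0.70, -0.87 and -0.93 for the lower genes. These medians describe genes that were called with the same libraries.

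**Figure D2:**
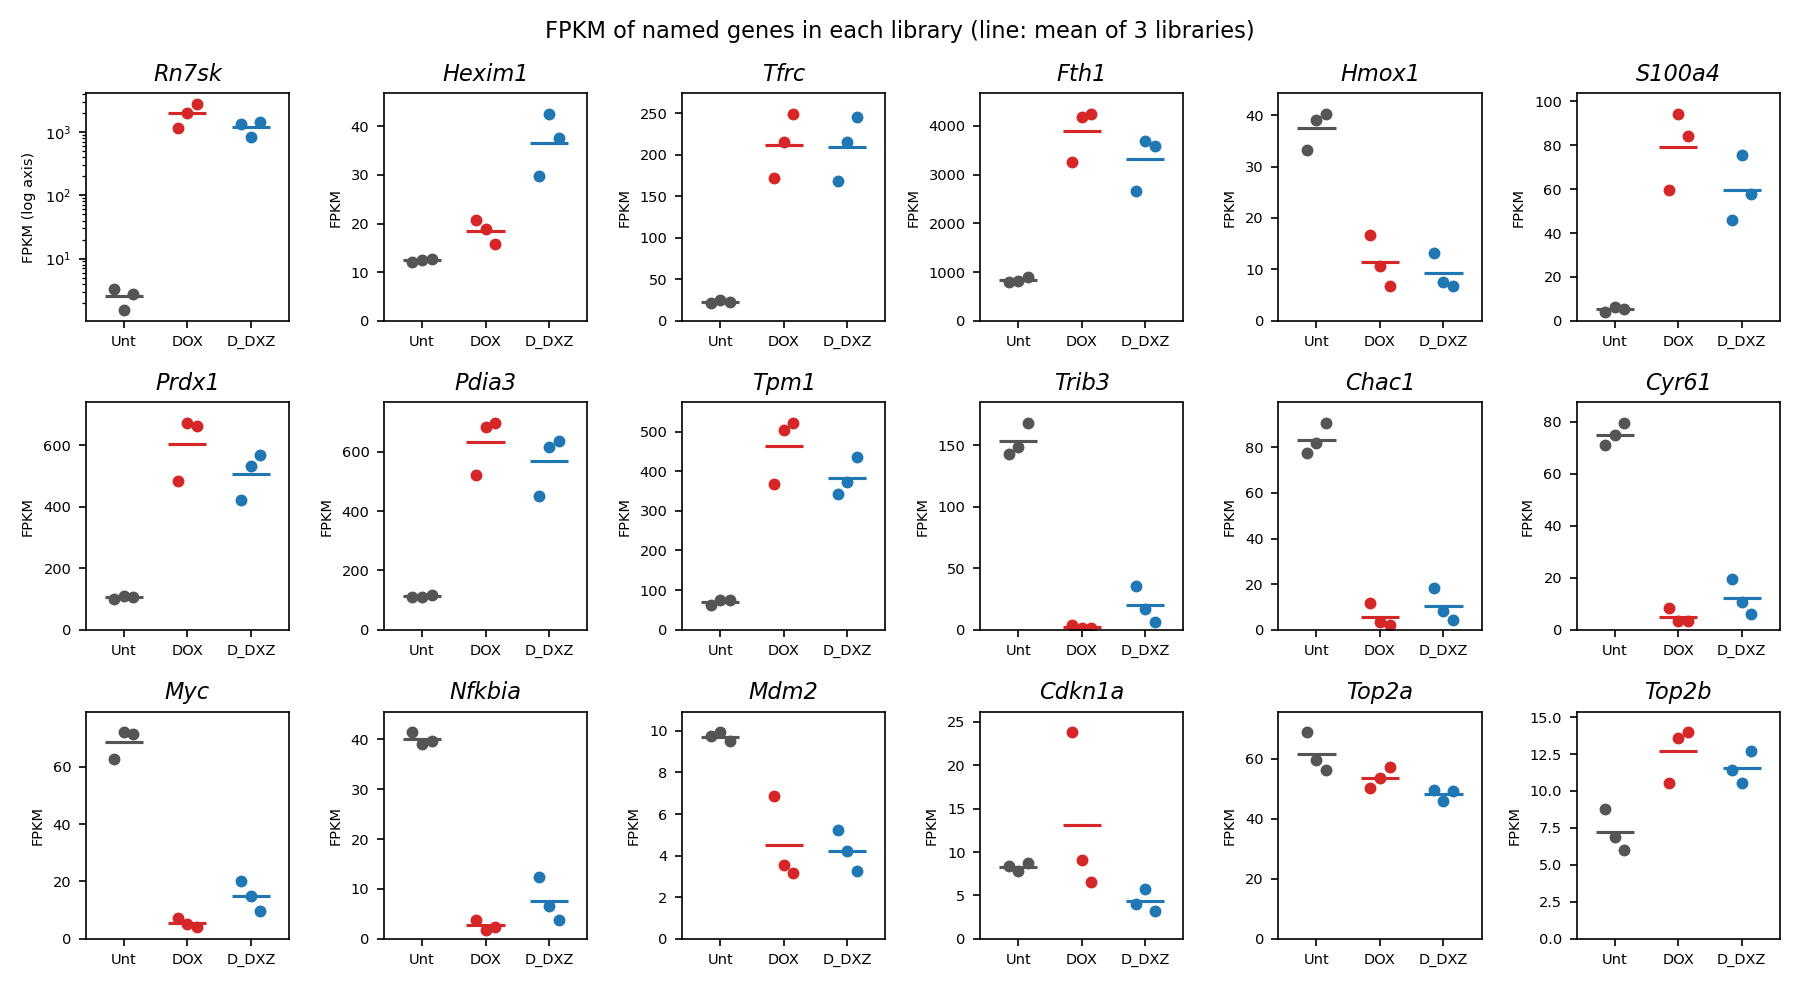
FPKM of 18 named genes in each Unt, DOX and D_DXZ library (points) with the mean of 3 libraries (line). Rn7sk has a log axis and the other axes start at 0. The D_DXZ libraries sit apart from Unt for every gene shown and near DOX for most. Every D_DXZ library is above DOX for Hexim1, Trib3 and Myc, and below it for Cdkn1a and, narrowly, for Top2a.

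Among the targets of doxorubicin, the size of the difference in topoisomerase II, and for Top2b also its direction, depended on the scaling. Top2a, the topoisomerase II form of dividing cells, stood at 68.9, 59.8 and 56.2 FPKM in Unt and at 49.7, 45.9 and 49.2 FPKM in D_DXZ, a difference of -0.34 on the log2 scale as deposited (adjusted p = 0.0137) and -1.51 with TPM scaling. Top2b, the form present in non-dividing heart cells, was 7.21 FPKM in Unt and 11.6 FPKM in D_DXZ (0.62 ± 0.13 as deposited, but -0.45 with TPM scaling and -0.07 with voom). The 2 groups did not overlap for either gene as deposited, as for 84.2% of all genes tested. Of the 13 genes for topoisomerases and the removal of trapped cleavage complexes, 3 were higher and 8 lower as deposited and none higher and 13 lower with TPM scaling, beside 38.9% higher and 42.3% lower among all genes as deposited and 10.6% and 74.8% with TPM scaling. The relative median was -0.27 (-0.39 with TPM scaling). The largest fall among them was Nbn, of the MRN complex that binds broken ends, from 11.6 to 5.81 FPKM.

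The p53 pathway includes genes that are usually induced by DNA damage. Of the 29 tested genes of p53 and its targets, 16 were lower (55.2%, beside 42.3% of all genes) and 7 higher, and with TPM scaling 26 were lower and 1 higher. The relative median was -0.33 as deposited, -0.28 with TPM scaling and -0.16 with quantile normalization. Mdm2, the ubiquitin ligase that limits p53, fell from 9.72 ± 0.22 to 4.23 ± 0.99 FPKM (SD, n = 3), and Gadd45a, a growth-arrest gene, from 36.2 to 6.16 FPKM. Cdkn1a, the cell cycle inhibitor p21, stood at 8.37, 7.81 and 8.76 FPKM in Unt and at 4.01, 5.70 and 3.23 FPKM in D_DXZ, a fall of 0.83 (adjusted p = 0.000778), with 22 genes holding near-identical stretches of its transcript. Members that differed the other way were Perp, a membrane protein of cell adhesion and apoptosis, which rose from 23.8 to 82.3 FPKM, and Bax, the pore-forming apoptosis effector, which was 1.00 higher as deposited and 0.17 lower with TPM scaling. In DNA damage signalling and strand break repair, 18 of 31 genes were lower (58.1%, beside 42.3% of all genes) and 6 higher. With TPM scaling 30 were lower and 1 higher, with quantile normalization 13 were lower and 7 higher, and the relative median was -0.33 as deposited and -0.09 with quantile normalization. Rnf168, a ubiquitin ligase at broken DNA, fell from 13.1 to 4.04 FPKM and Brca1, a homologous recombination factor, from 9.40 to 4.12 FPKM, whereas Parp1, which senses strand breaks, rose from 32.0 to 96.2 FPKM.

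Immediate early genes and several lists of signalling regulators were mostly lower. Of 24 immediate early genes, 20 were lower and 1 higher, against 42.3% lower among all genes. Their relative median was -0.94 (-1.03 with TPM scaling). Cyr61, a matricellular protein induced by serum and stretch, stood at 70.9, 74.8 and 79.4 FPKM in Unt and at 19.4, 10.7 and 6.23 FPKM in D_DXZ. Myc, a growth-promoting transcription factor, stood at 62.8, 72.1 and 71.3 FPKM in Unt and at 20.2, 14.9 and 9.67 FPKM in D_DXZ. In both genes every D_DXZ library was below every Unt library, and replicate 3 was lowest. Fos, of the AP-1 factor, was already low at 1.54 FPKM in Unt and was 0.62 FPKM in D_DXZ (-0.69 ± 0.18, adjusted p = 0.00631). The exception was Maff, a small MAF factor, which was 0.91 higher as deposited and 0.15 lower with TPM scaling.

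Of the 14 MAPK phosphatases, Sprouty and Spred genes, which damp growth factor signalling and are induced by it, 13 were lower and 1 higher (relative median -1.14, and -0.95 with TPM scaling). With TPM scaling 13 were lower and none higher. Beside the lists of this paragraph, 42.3% of all genes were lower and 38.9% higher as deposited. With TPM scaling 74.8% of all genes were lower and 10.6% higher. Spred2 fell from 12.2 to 3.05 FPKM, and Dusp4 was the member that rose, from 2.36 to 6.28 FPKM. In the list of NF-kB, cytokines and chemokines, 14 of 20 tested genes were lower and 4 higher (16 and 1 with TPM scaling). Nfkbia, the inhibitor that NF-kB itself induces, fell from 40.0 ± 1.22 to 7.64 ± 4.41 FPKM (SD, n = 3), and the chemokine Cxcl12 rose by 2.13 on the log2 scale. In TGF-beta signalling 16 of 22 genes were lower and 4 higher (19 and 2 with TPM scaling). The signal transducer Smad3 fell by 1.82. Of 20 Hippo and Notch effectors 16 were lower and 2 higher (19 and none with TPM scaling). Amotl2, a junction protein that binds YAP, fell by 2.42. Tead2, a partner of YAP, was 0.99 higher as deposited and 0.16 lower with TPM scaling. Zinc finger genes named Zfp, mostly repressors of the KRAB type, were lower in 158 and higher in 11 of 213 tested, with a relative median of -0.67. With TPM scaling 206 were lower and none higher (relative median -0.40). Zfp609 fell the most, by 1.96, and Zfp326 stood at 0.96 as deposited and -0.06 with TPM scaling.

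The amino acid stress response was divided. ATF4 is a transcription factor translated when eIF2 is phosphorylated, and it induces other transcription factors, feedback genes and the enzymes of serine synthesis. Of 20 ATF4 targets, 12 were lower and 6 higher as deposited, and 18 were lower and none higher with TPM scaling. All 20 were lower with quantile normalization, and the relative median was -0.88 (-0.96 with TPM scaling). Among all genes 42.3% were lower and 38.9% higher as deposited, and 74.8% and 10.6% with TPM scaling. The falls included Trib3 and Chac1, which degrades glutathione, at 77.5, 82.0 and 90.6 FPKM in Unt and at 18.5, 8.06 and 4.21 FPKM in D_DXZ, and Atf4 itself, which fell from 287 to 56.2 FPKM. The largest rise was Psat1, an enzyme of serine synthesis, from 222 to 490 FPKM (1.12 as deposited, -0.06 with TPM scaling and -0.37 with quantile normalization). The others higher as deposited were Phgdh and Shmt2, also of serine and glycine synthesis, Mthfd2, of folate metabolism, the amino acid transporter Slc7a5, and Nupr1. Among the lower ones were the transcription factors Atf4, Cebpb, Cebpg and Ddit3 and the feedback phosphatase subunit Ppp1r15a.

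The C/EBP-ATF response element, TGATGCAA, is the sequence through which ATF4 dimers with C/EBP proteins act. It was searched on both strands in the 250 bases before the start of each gene in the RefSeq promoters of GRCm38.p6, which are mouse sequences although the cells are described as rat. It was present in 3 of 19 ATF4 targets with a promoter entry (15.8%), in 0.622% of the 8041 tested protein-coding genes with one and in 0.918% of all 27025 genes in the table. Its share was 0.608% in higher and 0.596% in lower genes. The matches in the 3 targets are shown with 20 bases on each side, and capitals mark the element.
Chac1 (chr2:119351029-119351076, + strand): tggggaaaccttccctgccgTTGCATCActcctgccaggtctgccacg
Slc7a11 (chr3:50443652-50443699, - strand): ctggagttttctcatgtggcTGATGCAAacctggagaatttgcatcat
Nupr1 (chr7:126625553-126625600, - strand): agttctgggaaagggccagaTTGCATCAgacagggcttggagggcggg
The element lay 193 to 186 bases before the start in Chac1, 66 to 59 in Slc7a11, with another match 47 to 40 bases before it, and 110 to 103 in Nupr1. These 3 genes did not move alike. Chac1 fell by 3.11 and Slc7a11, the cystine importer, by 1.00, while Nupr1, a small stress-induced nuclear protein, stood at 47.4, 46.6 and 43.9 FPKM in Unt and at 53.2, 89.3 and 57.3 FPKM in D_DXZ (0.49 ± 0.18 as deposited, lower with TPM scaling and quantile normalization). Slc7a11 has 11 genes with near-identical stretches.

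Transcription control showed the largest single difference. Rn7sk, the 7SK RNA that holds the elongation kinase P-TEFb inactive, lies at chr9:78175303-78175633 (GRCm38, - strand) and stood at 3.36, 1.51 and 2.72 FPKM in Unt and at 1364, 844 and 1429 FPKM in D_DXZ. It had 28, 12 and 22 reads in the Unt libraries and 7290, 3662 and 6316 in the D_DXZ libraries. The difference was 8.42 ± 0.24 (SE, adjusted p = 4.24e-07), and 5 near-identical genes could share its reads. 7SK is a transcript of RNA polymerase III without a poly(A) tail, whereas these libraries were made from poly(A) RNA, so the value is a level in the selected fraction. Other RNAs that are not typical polyadenylated messengers differed by class. Both mitochondrial ribosomal RNAs, mt-Rnr1 and mt-Rnr2, were higher (median 5.12), and 9 of 14 mitochondrial tRNAs were higher and none lower. Of 6 small Cajal body RNAs 3 were higher and none lower. Of 76 small nucleolar RNAs 18 were higher and 22 lower, of 23 small nuclear RNAs 6 and 5, and of 56 microRNAs 13 and 13. The part of RNA selection in these values was not tested. Hexim1, the protein through which 7SK inhibits P-TEFb, stood at 12.0, 12.6 and 12.7 FPKM in Unt and at 29.7, 42.5 and 37.5 FPKM in D_DXZ, a rise of 1.47 ± 0.13. Of the 11 genes of the list, these 2 and Larp7, the 7SK-binding protein, were higher and the other 8 lower, although Larp7, 0.96 higher as deposited, was below 0 with TPM scaling. The lower members included Cdk9, the P-TEFb kinase, which fell by 0.76, and Mepce, the 7SK capping enzyme, which fell by 0.82. In RNA polymerase II, Mediator and TFIID 19 of 53 genes were higher (35.8%) and 23 lower (43.4%), near the shares of all genes (38.9% and 42.3%), and with TPM scaling 4 were higher and 44 lower. They ranged from Polr2l, a small subunit shared by the RNA polymerases, at 1.80, to the Mediator subunit Med18 at -1.80.

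The higher lists were abundant structural and housekeeping products. Of 77 cytosolic ribosomal protein genes, 76 were higher and none lower, against 38.9% higher among all genes, with a relative median of 1.36 as deposited, 1.11 with TPM scaling and -0.13 with quantile normalization. TPM scaling left 35 higher and 7 lower and quantile normalization 19 higher and 40 lower, so the direction of these genes turned with the scaling. Rpl23a, of the large subunit, stood at 215, 279 and 222 FPKM in Unt and at 772, 1088 and 936 FPKM in D_DXZ, and 24 near-identical copies could share its reads. Of the 695 processed pseudogenes tested, 513 were higher and 53 lower.

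Of 76 nuclear-encoded respiratory chain subunits, 75 were higher and 1 lower (relative median 1.38, 1.17 with TPM scaling and 0.43 with quantile normalization); with TPM scaling 35 were higher and 18 lower. Cox7b, of complex IV, rose from 56.8 ± 1.04 to 262 ± 23.2 FPKM (SD, n = 3), and Cox6a2, the muscle form of another complex IV subunit, fell from 4.66 to 1.04 FPKM. Of the 13 proteins encoded in the mitochondrial genome, 7 were higher and 1 lower as deposited, and 1 was higher and 7 lower with TPM scaling. mt-Co1, the catalytic subunit of complex IV, rose from 2880 to 13891 FPKM, while mt-Cytb, of complex III, was 0.37 lower (adjusted p = 0.0473), and the relative median was 0.61 as deposited and -0.47 with quantile normalization. Reads of the mitochondrial chromosome made up 1.19% to 1.41% of the reads in Unt and 2.73% to 3.27% in D_DXZ. The mitochondrial ribosomal proteins, which are encoded in the nucleus, did not follow the respiratory chain. Of 73, 33 were higher (45.2%) and 27 lower (37.0%), beside 38.9% and 42.3% of all genes. Their relative median was 0.07 (-0.06 with TPM scaling and -0.08 with quantile normalization). Mrps21, of the small subunit, stood at 1.69 and Mrpl44, of the large subunit, at -1.88.

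Actin cytoskeleton and contractile genes had the highest relative median of the 34 lists, 1.68 as deposited. They stood below the histones with TPM scaling (1.51 against 1.60) and below the histones and collagens with quantile normalization (0.57 against 1.47 and 0.73). The histone values are limited by the filter, as given below. Of 23 actin genes tested, 21 were higher and 2 lower, and 18 were higher and 4 lower with TPM scaling. Among all genes 38.9% were higher and 42.3% lower as deposited, and 10.6% and 74.8% with TPM scaling. Tpm1, a tropomyosin of the thin filament, stood at 62.8, 74.1 and 76.3 FPKM in Unt and at 341, 372 and 437 FPKM in D_DXZ. Zyx, a focal adhesion protein, was among the 2 lower genes, with a difference of -0.45 ± 0.14 (SE, log2 scale). All 16 collagens tested were higher, with Col4a5, of basement membranes, rising by 1.91; with TPM scaling 11 were higher and 2 lower. Glycolysis had 17 of 20 genes higher (11, with 6 lower, under TPM scaling), but Slc2a1, the glucose transporter GLUT1, fell from 24.5 to 6.57 FPKM. The largest value in that list, Gapdh, rests on unequal libraries: it was 2.02, 2.40 and 2.13 FPKM in Unt and 80.4, 35.3 and 1.74 FPKM in D_DXZ, so the groups overlapped (2.66 ± 0.98, adjusted p = 0.0296 in limma), and 148 genes hold near-identical sequence.

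The CArG box, which reads CC, 6 bases of A or T, then GG, is bound by serum response factor at many actin genes. It was found in the 250 upstream bases of 5 of 22 actin cytoskeleton genes with a promoter entry (22.7%) and in 1.36% of the 8041 tested protein-coding genes, with 1.39% in higher and 1.60% in lower genes. The matches in 4 of these genes are shown from GRCm38.p6 with 20 bases on each side, since they stand in the list with the highest relative median, and capitals mark the box.
Actg1 (chr11:120348556-120348605, - strand): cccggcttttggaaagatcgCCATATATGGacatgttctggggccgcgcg
Myl6 (chr10:128493030-128493079, - strand): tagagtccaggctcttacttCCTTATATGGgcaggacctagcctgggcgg
Cnn2 (chr10:79988524-79988573, + strand): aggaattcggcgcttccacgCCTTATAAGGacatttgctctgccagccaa
Vcl (chr14:20929151-20929200, + strand): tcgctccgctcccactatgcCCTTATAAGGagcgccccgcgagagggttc
Actg1, cytoplasmic gamma-actin, rose by 2.12 on the log2 scale, Myl6, a myosin light chain, from 119 to 422 FPKM, Cnn2, a calponin, from 71.8 to 208 FPKM, and Vcl, the adhesion protein vinculin, from 28.7 to 108 FPKM. The box lay 90 to 81 bases before the start in Actg1, 50 to 41 in Myl6, 56 to 47 in Cnn2 and 227 to 218 in Vcl. The box was also found in 2 of 18 immediate early genes with an entry, Srf and Zfp36.

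Iron handling genes differed in both directions. Tfrc, the transferrin receptor that brings iron into the cell, lies at chr16:32608920-32632794 (GRCm38, + strand) and stood at 21.6, 25.2 and 22.2 FPKM in Unt and at 169, 216 and 245 FPKM in D_DXZ. It rose by 3.12 ± 0.14 (SE, adjusted p = 5.07e-06), and its lowest D_DXZ library was far above its highest Unt library. Fth1, the ferritin heavy chain that stores iron, rose as well, from 802, 820 and 890 FPKM to 2673, 3689 and 3582 FPKM. Iron regulatory proteins are known to move Tfrc and ferritin in opposite ways, by mRNA stability for the receptor and by translation for ferritin. Hmox1, which releases iron from haem, stood at 33.2, 39.0 and 40.2 FPKM in Unt and at 13.2, 7.63 and 6.84 FPKM in D_DXZ, a fall of 1.96. Of the 21 tested iron genes, 11 were higher (52.4%) and 8 lower (38.1%), beside 38.9% and 42.3% of all genes. With TPM scaling 5 were higher and 14 lower, beside 10.6% and 74.8% of all genes. The exporter Slc40a1 was below the filter.

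Defence against peroxides was mainly higher. Of 26 genes of glutathione and lipid peroxide defence, 18 were higher and 4 lower, and 12 were higher and 9 lower with TPM scaling (relative median 1.24 and 1.08). Among all genes 38.9% were higher and 42.3% lower as deposited, and 10.6% and 74.8% with TPM scaling. Prdx1, a peroxiredoxin, stood at 101, 109 and 107 FPKM in Unt and at 423, 531 and 567 FPKM in D_DXZ, and Gpx4, which reduces lipid peroxides and restrains ferroptosis, rose from 113 ± 4.35 to 361 ± 57.4 FPKM (SD, n = 3). Both have 2 genes with near-identical sequence. The regulator and the limiting importer of this defence went the other way: Nfe2l2, the transcription factor NRF2, fell from 17.0 to 7.79 FPKM and Slc7a11 from 5.50 to 2.28 FPKM. In the NRF2 pathway 8 of 20 genes were higher (40%) and 9 lower (45%), near the shares of all genes as deposited (38.9% and 42.3%). With TPM scaling 8 were higher and 12 lower, beside 10.6% and 74.8% of all genes. The relative median was 0.04 as deposited and -0.11 with TPM scaling. Pgd, of the pentose phosphate pathway, rose by 1.98.

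In the unfolded protein response and ER chaperone list, 13 of 21 genes were higher and 5 lower, and 9 were higher and 9 lower with TPM scaling. Beside the lists of this paragraph, 38.9% of all genes were higher and 42.3% lower as deposited. With TPM scaling 10.6% of all genes were higher and 74.8% lower. Pdia3, a disulphide isomerase, rose from 113 to 568 FPKM and Calr, the chaperone calreticulin, from 202 to 896 FPKM. Herpud1, of the ER degradation complex, fell from 45.9 to 9.79 FPKM and Xbp1, the transcription factor of the response, from 14.4 to 3.49 FPKM. Among 19 heat shock genes 14 were higher and 4 lower (7 and 8 with TPM scaling), Hsp90aa1 rising by 2.32 and Dnajb1, a co-chaperone, falling by 1.34. Of 36 proteasome subunits 28 were higher and 1 lower as deposited, but 9 were higher and 21 lower with TPM scaling; Psmd2 rose from 89.0 to 336 FPKM. Of 34 autophagy and lysosome genes 19 were higher and 10 lower (10 and 21 with TPM scaling), with the protease Ctsl rising by 2.10 and Tfeb, the transcription factor of lysosomal genes, falling by 1.43. In translation factors 30 of 55 were higher and 16 lower (7 and 40 with TPM scaling, 17 and 25 with quantile normalization), with Eif5a rising by 1.86 and Eif1a falling by 1.75. Their relative median turned from 0.49 as deposited to -0.11 with quantile normalization. In cholesterol synthesis 15 of 25 were higher, led by Idi1, and 7 lower (6 and 16 with TPM scaling), with Sqle, a rate-limiting epoxidase, falling from 59.6 to 18.3 FPKM. In SR splicing factors and nucleolar proteins 8 of 27 were higher (29.6%) and 10 lower (37.0%), both below the shares of all genes. With TPM scaling 1 was higher and 24 lower, and with quantile normalization 3 and 18. Ncl, nucleolin, rose by 1.64 and Polr1c, a subunit of RNA polymerases I and III, fell by 1.78.

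In mitosis 18 of 34 genes were lower (52.9%, beside 42.3% of all genes) and 9 higher as deposited, and 32 were lower and none higher with TPM scaling. Among all genes 38.9% were higher as deposited, and 10.6% were higher and 74.8% lower with TPM scaling. Wee1, the kinase that delays entry into mitosis, fell from 13.6 to 2.73 FPKM, and Plk1, which drives it, from 54.4 to 13.4 FPKM. Pttg1, securin, was 0.95 higher as deposited and 0.16 lower with TPM scaling. In DNA replication and nucleotide synthesis 22 of 42 were higher and 12 lower as deposited and 4 were higher and 32 lower with TPM scaling. With quantile normalization 11 were higher and 23 lower, and the relative median turned from 0.38 as deposited to -0.25. Rpa3, of the single-strand binding complex, rose by 1.71 and Cdt1 fell by 2.51. Of 24 G1 cyclins, kinases and inhibitors 14 were lower and 5 higher; Cdkn2a, the locus of p16 and p19ARF, rose from 389 to 1735 FPKM and Cdkn2d, the inhibitor p19INK4d, fell by 2.10. All 16 replication-dependent histones that passed the filter were higher, out of 67 listed, with a relative median of 1.32 (1.60 with TPM scaling). Their median log2(FPKM + 1) was 0.70 to 0.85 in the Unt libraries, under the filter of 1 FPKM, and 1.78 to 2.13 in D_DXZ. Many thus passed through the D_DXZ libraries, where they are high. That all were higher was therefore partly set by the filter. Hist1h4i rose by 2.53, and 6 genes share near-identical sequence with it. Most mRNAs of this class lack a poly(A) tail.

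Apoptosis genes differed in both directions, in shares near those of all genes. Of 27 BCL2 family and caspase genes, 9 were higher (33.3%) and 10 lower (37.0%), beside 38.9% and 42.3% of all genes. With TPM scaling 3 were higher and 21 lower, beside 10.6% and 74.8% of all genes. Cycs, cytochrome c, rose from 23.1 to 86.5 FPKM, Casp12, an ER-linked caspase, from 3.62 to 10.8 FPKM, and Bcl2l11, the BH3 protein BIM, by 0.43 as deposited but not with TPM scaling (-0.45) or voom (-0.19). Apaf1, the scaffold that cytochrome c activates, fell from 4.10 to 1.49 FPKM. Mcl1, a short-lived survival protein, stood at 38.5, 41.2 and 39.7 FPKM in Unt and at 15.6, 10.2 and 7.58 FPKM in D_DXZ, and Bcl2l1, BCL-XL, fell from 5.51 ± 0.38 to 2.00 ± 0.16 FPKM (SD, n = 3). Each of these genes was separated without overlap between the groups, as were 84.2% of all genes tested. Bcl2l11 was so only narrowly, with at most 2.45 FPKM in Unt and at least 2.50 FPKM in D_DXZ. Genes named above that overlap a gene on the other strand, which non-directional libraries cannot tell apart, are Idi1, Sh3bgrl, Gadd45a, H1f0, Top2a, Top2b, Nbn, Rpl23a, Mrpl44, Cox6a2, mt-Co1, Col4a5, Wee1, Slc7a11, Pdia3, Herpud1, Psat1, Gapdh, Slc2a1, Ctsl, Zyx, Tead2 and Apaf1. Besides those given with their values, Ctsl has 22 genes with near-identical stretches, Cycs 4, Rnf168, Polr2l and Hsp90aa1 3 each, Cox7b and mt-Co1 2 each, and Spred2, Mrps21, Psmd2, Eif5a, Eif1a, Fth1 and Apaf1 1 each. These checks covered the genes named by rule.

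Which of these differences dexrazoxane altered was tested directly against doxorubicin alone. Over the same 11439 genes, 10 (0.0874%) passed in limma for D_DXZ against DOX at an adjusted p of 0.0407 each, 9 of them higher and 1 lower with dexrazoxane, and 2335 (20.4%) had an unadjusted p under 0.05. Leaving out libraries moved the 10 to between 0 (without DOX replicate 3, or without D_DXZ replicate 2) and 21 (without D_DXZ replicate 3). For scale, DOX exceeded Unt for 4800 genes (42.0%) and was below it for 4850 (42.4%), a comparison that shares the Unt libraries with the one described here. A gene that missed the threshold is not thereby shown to respond alike in both groups. The filter used the D_DXZ and Unt libraries, so a gene that reached 1 FPKM only in DOX could not enter. A gene that reached it only in D_DXZ could, so the split into higher and lower genes is partly set by the filter. D_DXZ was compared with DOX only on FPKM as deposited. The implied scaling was 0.647 to 0.784 times the reads on genes in DOX and 0.747 to 0.892 times in D_DXZ. How these results depend on the scaling was not tested.

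The 10 genes were Gas1, Ing5, Mepce, Neat1, Ogt, Pnisr, Zfp445, Snord91a and Gm25889, higher in D_DXZ, and Pik3r2, lower. Ogt, the enzyme that adds O-GlcNAc to proteins, was 7.66, 7.01 and 6.98 FPKM in DOX, 19.2, 15.1 and 14.0 FPKM in D_DXZ and 33.9 ± 2.40 FPKM in Unt (SD, n = 3). Its D_DXZ libraries lay between those of the other groups and overlapped neither. Neat1, the long RNA that builds nuclear paraspeckles, averaged 5.59 FPKM in DOX, 12.6 FPKM in D_DXZ and 26.5 FPKM in Unt. Gas1, a growth-arrest membrane protein, averaged 4.19, 9.16 and 14.4 FPKM in that order, and Ing5, a chromatin reader, 1.45, 3.82 and 8.25 FPKM.

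Mepce averaged 4.30 FPKM in DOX, 8.25 FPKM in D_DXZ and 15.4 FPKM in Unt. Pnisr, a splicing-related nuclear protein, and Zfp445, a zinc finger repressor, were 0.84 and 0.86 higher in D_DXZ than in DOX and did not pass the test against Unt (adjusted p = 0.676 and 0.233). Pik3r2, a regulatory subunit of PI3 kinase, averaged 8.51 FPKM in DOX, 1.97 FPKM in D_DXZ and 4.97 FPKM in Unt, where its libraries ranged from 3.01 to 7.44 FPKM. Snord91a, a small nucleolar RNA, averaged 3.49 FPKM in DOX, 10.1 FPKM in D_DXZ and 5.58 FPKM in Unt. Gm25889, a small nuclear RNA, was at 0 in all DOX libraries and averaged 1.91 FPKM in D_DXZ. It was at most 0.382 FPKM in Unt and passed the filter through its D_DXZ libraries alone.

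**Figure D3:**
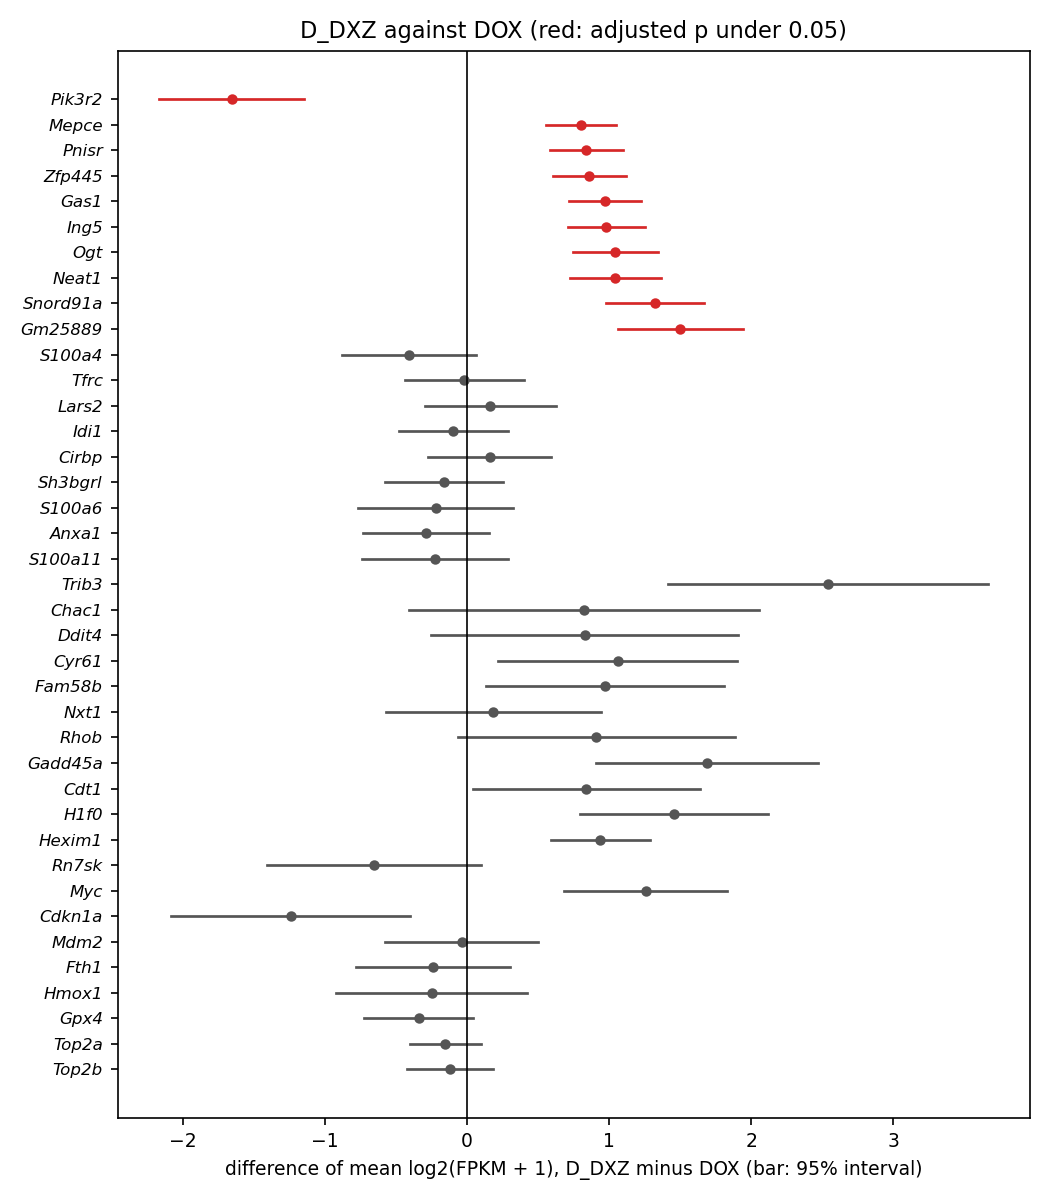
Difference of mean log2(FPKM + 1), D_DXZ minus DOX, with its 95% interval from limma, for the 10 genes with an adjusted p under 0.05 (red) and for 29 named genes (grey). The intervals of Tfrc and of the S100 genes include 0, and several of the largest falls, such as Trib3, Gadd45a and H1f0, lie to the right of 0 without passing the adjusted threshold.

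Most named genes could not be told apart from doxorubicin alone. Tfrc differed between D_DXZ and DOX by -0.02 (95% interval -0.43 to 0.40), Fth1 by -0.24 (-0.78 to 0.30), Gpx4 by -0.34 (-0.72 to 0.04) and Rn7sk by -0.65 (-1.40 to 0.10), none of which passed the test. Trib3 was 1.14, 1.43 and 3.97 FPKM in the DOX libraries and at least 6.62 FPKM in D_DXZ, a difference of 2.54 (1.41 to 3.67, adjusted p = 0.107). Myc was 1.26 higher (0.69 to 1.83) and Gadd45a 1.69 higher (0.91 to 2.47), both at an adjusted p of 0.107. Hexim1 was 20.8, 18.9 and 15.8 FPKM in DOX, below every D_DXZ library, and 0.94 higher with dexrazoxane (0.59 to 1.29, adjusted p = 0.0786). Cdkn1a was 23.8, 9.05 and 6.49 FPKM in DOX, above every D_DXZ library and widely spread, and was 1.24 lower with dexrazoxane (-2.08 to -0.40 on the log2 scale, adjusted p = 0.163).

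By list, at most 1 member was called between D_DXZ and DOX, Mepce in the 7SK list and Zfp445 among the zinc finger genes, while the other lists held none. Set side by side, the median fold change against Unt was -1.26 in DOX and -1.01 in D_DXZ for immediate early genes, -1.31 and -0.95 for ATF4 targets, 1.61 and 1.29 for cytosolic ribosomal proteins and 2.01 and 1.62 for actin cytoskeleton genes. The p53 list was -0.06 in DOX and -0.39 in D_DXZ. At an unadjusted p under 0.05, with dexrazoxane 9 of the 24 immediate early genes exceeded doxorubicin alone and 1 was below it, and none of the 77 ribosomal protein genes was higher and 19 were lower, beside 9.69% of all genes higher and 10.7% lower.

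Differences from Unt also varied with the length of the gene. In 5 equal bins of protein-coding genes by span on the genome, 46.5% of the shortest genes (up to 8.32 kb) were higher and 39.1% lower, and 27.5% of the longest (from 66.3 kb) were higher and 56.6% lower. The median fold change went from 0.16 to -0.42, and from -0.87 to -1.26 with TPM scaling. By mean level in Unt, 66.8% of the genes in the highest of 5 equal bins were higher, compared with 24.5% in the lowest, and the shortest genes also had the highest median FPKM of the 5 bins. How much of the relation to span goes with level was not tested.

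**Figure D4:**
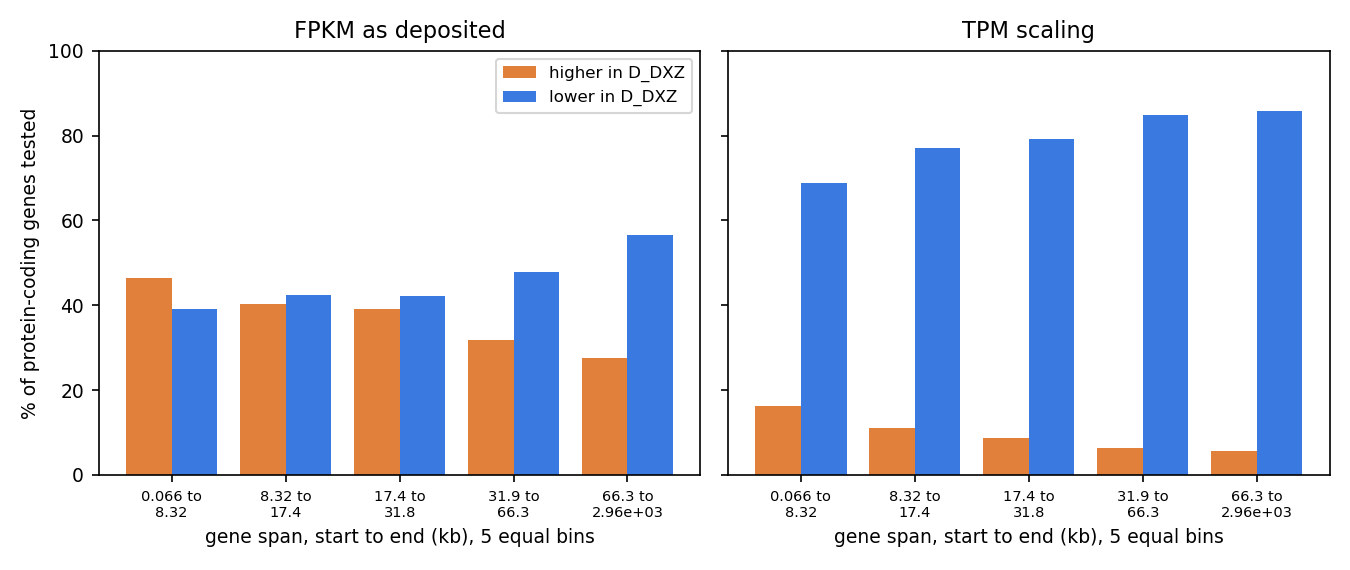
Share of protein-coding genes that rose or fell from Unt to D_DXZ at an adjusted p under 0.05, in 5 equal bins of gene span in kb, with FPKM as deposited (left) and TPM scaling (right). From the shortest to the longest bin the higher share falls from 46.5% to 27.5% on the left and from 16.3% to 5.68% on the right.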

How the data were processed

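The authors deposited FPKM values per gene and library; per the submitters' processing notes, HISAT2 2.0.5 and GRCm38 (mm10) were used, and the counting program and annotation release are not given in the sources used here. Multiplied by gene length, 100% of the deposited FPKM values were whole multiples of 1 step per library, which gave reads; the implied scaling was 1.32 to 1.38 times the reads on genes in Unt and 0.747 to 0.892 times in D_DXZ. Genes reaching 1 FPKM in 3 or more of the 6 libraries were tested on log2(FPKM + 1) with limma 3.58.1 (trend) in R 4.3.3, with only the groups compared in each fit, and p-values were adjusted over all genes tested. Such fold changes understate the changes of low genes. Counting error is not modelled. On simulated data for D_DXZ against Unt over 11345 genes, 100 of 100 genes planted at a log2 change of 2 and 99 of 100 at 1 were recovered, and 24 unchanged genes were called. Only 200 genes were changed, each averaging 2 FPKM or more in Unt, with no shift of scaling. In the data 81.3% of genes were called, so the simulation does not vouch for calls in that setting.

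The members, the 34 gene lists and the named genes were chosen with earlier results of these data known. Named were the 10 largest rises and falls whose higher group averaged 5 FPKM or more and whose groups did not overlap, the largest called rise and fall of each list (averaging 2 FPKM or more), and a fixed set of drug, iron, p53, apoptosis and 7SK genes; other list members were named after their values were seen. Near-identical copies (at least 95% identity over 150 bases) were searched with BLAST 2.17.0 in GENCODE M21. Promoters were matched by current or older symbol. All columns of samples were assigned. Alternatives were another pseudocount, 3 filters, a fit of all 12 libraries, a replicate block, TPM scaling, quantile normalization, voom on reads, unadjusted p, a 2-fold minimum and each library left out. For D_DXZ against DOX no other scaling was fitted. Values of 2 genes that the rule names are not reported here.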

Additional observations from a re-analysis of the deposited data

How the results depend on the processing

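The counts of 4455 higher and 4840 lower genes stayed within 1.5 times under a pseudocount of 0.1, looser filters, a fit of all 12 libraries, quantile normalization and unadjusted p. They were 1215 and 8551 with TPM scaling; voom gave 2279 higher. A mean FPKM of at least 5 gave 2224 lower, and a 2-fold minimum 2081 and 1706. Without 1 library they ranged from 4139 to 4655 and from 4491 to 4886. In the fit without a filter most residual variances were 0, so its prior is unreliable. The 10 genes differing between D_DXZ and DOX became 2 in the fit of all 12 libraries and 0 to 21 without 1 library (2, 4 and 0 without DOX replicates 1, 2 and 3, and 1, 0 and 21 without D_DXZ replicates 1, 2 and 3).

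Medians relative to all genes changed sign, by more than the spread between libraries, with quantile normalization for cytosolic ribosomal proteins (-0.13), mitochondrial ribosomal proteins (-0.076), mitochondrial genome-encoded proteins (-0.47), translation factors (-0.11) and DNA replication (-0.25). Mitochondrial ribosomal proteins also did so with TPM scaling (-0.061) and a mean FPKM of at least 5 (-0.063), BCL2 family and caspases with FPKM above 0 (-0.0051), no filter (-0.0015) and a mean of at least 5 (-0.059), and the NRF2 pathway with a mean of at least 5 (-0.14). The NRF2 median was also below 0 with TPM scaling (-0.11), within that spread. Of the named genes, with TPM scaling Top2b became -0.45, Maff -0.15, Zfp326 -0.061, Pttg1 -0.16, Psat1 -0.064, Tead2 -0.16, Bax -0.17 and Bcl2l11 -0.45. Voom turned Top2b to -0.067 and Bcl2l11 to -0.19, and quantile normalization turned Psat1 to -0.37. The cause was not tested.

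The replicate block gave 4428 higher and 4785 lower genes. Same-numbered Unt and D_DXZ libraries had deviations from their group means that correlated at 0.060, 0.020 and 0.030, and D_DXZ replicate 2 correlated best with Unt replicate 3 (0.046), so the numbers were not taken to pair the libraries. Depth limits the lowest genes, such as Gm25889.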
